A study of Mus musculus with 20 samples.

Results

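RNA from 9 mouse T-cell acute lymphoblastic leukemias (T-ALLs) was compared between 3 leukemias with next to no NOTCH1 target RNA, called NOTCH-silent (5C, 8633 and JW14), and 6 with abundant target RNA, called NOTCH-active (20M, 2M, 73A, 73M, 78A and JW81). The leukemias were chosen by Dtx1, a gene switched on by NOTCH1: a NOTCH-silent leukemia had under 1 FPKM (fragments scaled to exon length and library size) and a NOTCH-active one over 10 FPKM in the library whose column name holds the letters VEH. The series has 20 samples, 2 for each of 10 leukemias, and the comparison used 9 of them, the VEH library of each leukemia. Leukemia 4638 was not used here.

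The leukemias arose in C57Bl/6 x 129Sv/Jae F1 mice through insertional mutagenesis (IM) with the retrovirus MOL4070LTR, and polyadenylated RNA came from marrow of adult mice of the same cross into which they had been transplanted after irradiation. The groups also differ in other alleles, whose part in a difference between them cannot be told apart from NOTCH1 target level. The labels do not explain the letters VEH, or DEX in the columns of the other libraries, and do not say which cells of the recipients were left. Each leukemia gave 1 VEH library, so a p-value measures the spread between these leukemias.

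Estimated fragment totals ran from 11305114 in 5C to 201222288 in 73M with a median of 29681187, and 79.85% to 82.89% of each total lay in protein-coding genes. A count of 3 on a gene of 1 kilobase corresponded to between 0.01491 and 0.2654 FPKM, a limit that covers counting error only. The libraries of 8633 and JW14 resembled each other more than any other pair: 42 genes differed by over 4-fold on the FPKM + 1 scale, against 352 and 367 between 5C and these, and 82 to 167 among the NOTCH-active leukemias other than JW81. JW81 differed from those 5 by 270 to 329 genes and from the NOTCH-silent leukemias by 497 to 633. Whether 8633 and JW14 come from separate tumors was not tested, and results are also given with their counts summed to 1 sample. The Y-linked gene Ddx3y was at 23 to 25.3 FPKM in 8633, JW14 and 73M and at 0.464 to 1.77 FPKM in the other 6, which held Xist at 76.1 to 279 FPKM. The high Ddx3y level was thus found in 2 of 3 NOTCH-silent and 1 of 6 NOTCH-active leukemias. The part of sex in the differences was not tested.

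NOTCH1 is a cell-surface receptor. On contact with a ligand it is cut by ADAM proteases and then gamma-secretase, and the freed intracellular part enters the nucleus, where it joins the DNA-binding protein RBPJ and a Mastermind coactivator to switch on its targets. In the thymus NOTCH1 drives progenitors into the T lineage and through the stage at which the T-cell receptor beta chain is checked, and activating mutations of the gene are common in T-ALL. Target genes include Dtx1, Hes1, Heyl, Nrarp, Notch3, Ptcra, Il2ra and Notch1 itself.

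Values of the NOTCH1 targets describe how the groups were made and were not tested. Dtx1 (ENSMUSG00000029603, GRCm38 chr5:120680202-120711927), which encodes the E3 ligase Deltex, stood at 0.285, 0.173 and 0.171 FPKM in 5C, 8633 and JW14, the order used throughout, and at 44.8 to 155 FPKM in the NOTCH-active leukemias with a median of 97.4. The leukemias nearest the limits were 5C, at 0.285 FPKM, and JW81, at 44.8 FPKM. Hes1, a transcriptional repressor, was at 0.13, 0.0165 and 0.104 FPKM against 15.8 to 47.7, median 29.8. Il2ra, the alpha chain of the interleukin-2 receptor, was at 0.445, 0.0374 and 0.0974 FPKM against 46 to 145, median 86.3. Notch3 (1.19, 0.05 and 0.0295 against 20.6 to 38.4 FPKM) and Notch1 (1.21, 1.71 and 1.11 against 51.8 to 120 FPKM) were also lower in every NOTCH-silent leukemia than in any NOTCH-active one.

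Ptcra encodes the pre-T-cell receptor alpha chain. It had 2 counts in all 3 NOTCH-silent libraries together and 7306 in the 6 NOTCH-active ones, a ratio of library-scaled counts of 847 (95% counting interval 234 to 6996). Heyl and Nrarp, a repressor and a feedback inhibitor of NOTCH, were the 2 of the 8 targets whose groups overlapped, because JW81 had 1.13 FPKM of Heyl and 0.211 FPKM of Nrarp, within the NOTCH-silent range. Without JW81 the lowest NOTCH-active leukemia had more of each than any NOTCH-silent one, as the plot of NOTCH pathway and thymocyte genes shows.

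**Figure D1:**
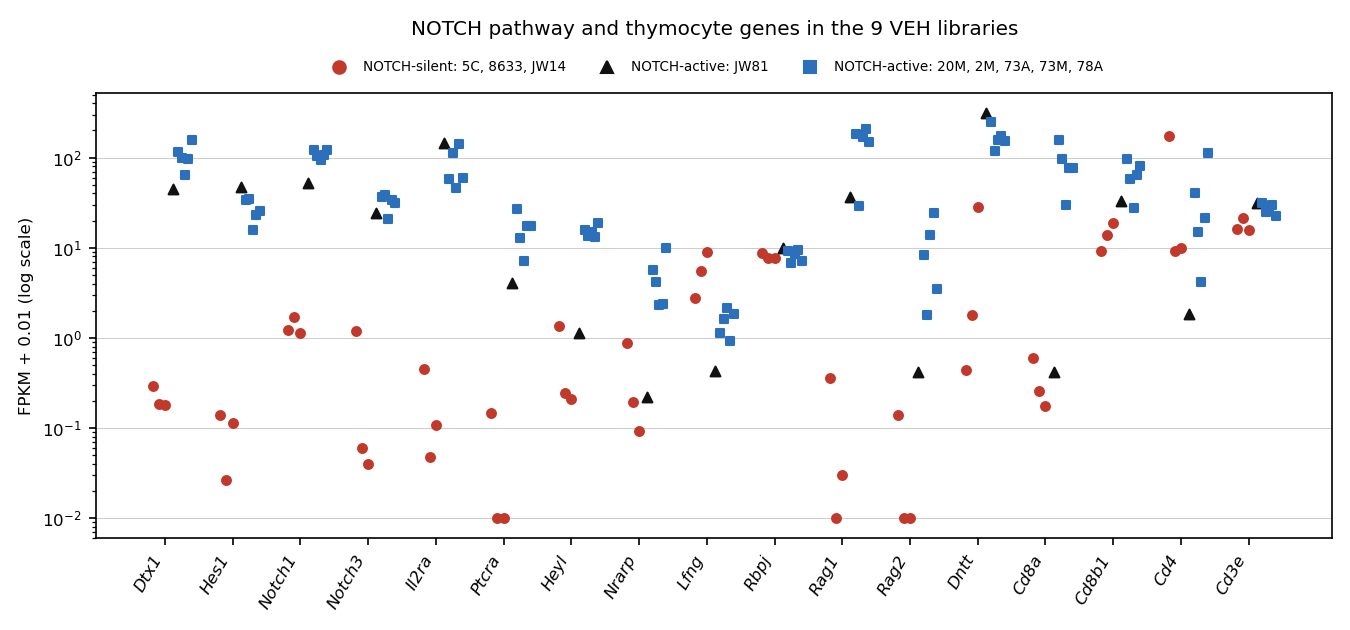
FPKM plus 0.01 on a log axis for 17 NOTCH pathway and thymocyte genes, 1 point for each VEH library; circles are NOTCH-silent leukemias, triangles JW81 and squares the other 5 NOTCH-active leukemias. Dtx1 is at most 0.285 FPKM in the circles and at least 44.8 FPKM in the rest, Rbpj overlaps between the groups, and JW81 lies with the circles for Heyl, Nrarp and Cd8a.

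The promoters of Ptcra and Rag1 are shown because these genes were among those with least RNA in NOTCH-silent leukemias and each holds both a core RBPJ motif (TGGGAA) and the E-box CAGCTG, the kind of site bound by E proteins. Each window runs from 250 bases before the transcript start to 50 after it, 5′ to 3′ on the gene's own strand, from RefSeq on GRCm38.p6, at chr2:101649483-101649782 (minus strand) for Rag1 and chr17:46763663-46763962 (minus strand) for Ptcra. Capitals mark the motifs on either strand, and no RBPJ core overlapped an E-box.
Rag1: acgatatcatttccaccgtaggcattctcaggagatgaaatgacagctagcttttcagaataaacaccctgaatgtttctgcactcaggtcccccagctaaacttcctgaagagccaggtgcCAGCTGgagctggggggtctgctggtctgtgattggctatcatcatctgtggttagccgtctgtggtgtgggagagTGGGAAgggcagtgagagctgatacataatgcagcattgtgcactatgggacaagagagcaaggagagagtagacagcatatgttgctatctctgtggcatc
Ptcra: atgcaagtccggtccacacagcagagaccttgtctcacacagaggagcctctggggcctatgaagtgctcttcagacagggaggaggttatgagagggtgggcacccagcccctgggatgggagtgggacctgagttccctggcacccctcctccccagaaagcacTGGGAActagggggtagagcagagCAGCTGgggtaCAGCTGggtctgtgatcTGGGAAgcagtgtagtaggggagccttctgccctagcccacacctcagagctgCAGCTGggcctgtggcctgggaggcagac
In Rag1 the RBPJ core began 52 bases and the E-box 128 bases before the start. In Ptcra the cores lay 84 and 32 bases before it and the E-boxes 60 and 49 bases before and 21 bases after it. TGGGAA was present in 25.6% and CAGCTG in 16.3% of all 32851 promoters in the table. Among the 6 NOTCH1 targets with a promoter there, 1 held the core (Ptcra) and 2 the E-box (Nrarp and Ptcra). Among 8 promoters of the 12 lower genes that the naming rule gave, 2 held the core (Pkp4 and Rag1), or 25%, and 3 the E-box (Gfra1, Pkp4 and Rag1). The printed promoters were picked for holding both motifs, as that of Pkp4 also does. A match describes the letters of these windows and is not a site of binding.

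Among the 11370 genes that averaged 1 FPKM or more, 1714 were higher in NOTCH-silent leukemias (15.1%) and 1586 lower (13.9%) at an adjusted p under 0.05. In 1405 of the higher genes (12.4% of those tested) and 1325 of the lower ones (11.7%) the groups also did not overlap. Since so many genes passed, the counts for gene lists are to be read against these shares. The matching shares were 17.7% higher and 19.6% lower of 11252 genes by DESeq2, and 7.24% and 6.74% with 8633 and JW14 summed to 1 sample, and counts under those settings are to be read against them. The share of all genes at an unadjusted p under 0.05 is not given here. List counts at that limit are therefore not a measure of excess. The counts were 1613 and 1568 without 5C, 918 and 845 without 8633, 769 and 708 without JW14, and 823 and 766 with 8633 and JW14 summed. In the other library of each leukemia, which the choice of groups did not use but which comes from the same leukemias, 1695 of 11307 genes were higher (15.0%) and 1499 lower (13.3%), and 1254 of the higher and 1113 of the lower ones were called in both. JW81 lay nearer to the mean of the NOTCH-silent leukemias than to that of the other 5 for 228 of the 1714 higher genes and 298 of the 1586 lower ones. The genes were called with JW81 in the NOTCH-active group, which favours genes where it lies with that group. These counts therefore cannot show to which group JW81 is closer.

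The lower genes with the largest differences were nearly silent in all 3 NOTCH-silent leukemias. Rag1 (ENSMUSG00000061311, GRCm38 chr2:101638282-101649501), the catalytic subunit of the recombinase that assembles antigen receptor genes, was at 0.348, 0 and 0.02 FPKM against 28.9 to 209 FPKM, median 161 (log2 difference −10.54 ± 1.54 SE, adjusted p = 0.00277). Gfra1 (chr19:58235604-58455909), a co-receptor for glial cell line-derived neurotrophic factor, was at 0.226, 0.0123 and 0.0339 FPKM against 40.6 to 93.7 FPKM, median 74.1 (−10.06 ± 0.81, adjusted p = 0.000178). Pkp4 (chr2:59160850-59355208), a plakophilin of cell junctions, was at 0.0775, 0.0945 and 0.116 FPKM against 13.2 to 20.4 FPKM, median 16.1 (−7.29 ± 0.25, adjusted p = 2.21e-06). Mum1l1 had 3 counts in the NOTCH-silent libraries and 50596 in the NOTCH-active ones, a ratio of library-scaled counts of 3911 (95% counting interval 1338 to 18964).

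The naming rule took only genes whose groups did not overlap, with at least 5 FPKM in every library of the higher group, JW81 included. The other 8 genes that the naming rule gave in this direction were Arsi, an arylsulfatase, Ly6d, a lymphocyte surface antigen, Fbp1, a gluconeogenic phosphatase, Akap2, a protein kinase A anchor, Aldh1b1, a mitochondrial aldehyde dehydrogenase, Bst1, an ADP-ribosyl cyclase, Nrp1, the semaphorin co-receptor neuropilin, and Afdn, the junction protein afadin. Their log2 differences ran from −9.70 ± 0.58 for Arsi to −7.08 ± 0.68 for Afdn, and all 12 kept the call when 8633 and JW14 were summed and in the other libraries. Rag1 shares exon bases with B230118H07Rik, Akap2 with Pakap, Bst1 with Fbxl5 and Afdn with Tcte2, so counts of these genes are uncertain, since no strand was recorded.

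The higher genes with the largest differences were mostly scarce in the NOTCH-active leukemias, where their medians were 0.0468 to 1.25 FPKM. Tns4 (ENSMUSG00000017607, GRCm38 chr11:99065678-99089306), a tensin of cell adhesions, was at 9.84, 19.8 and 10.9 FPKM against 0.0151 to 0.0616 FPKM, median 0.0468 (log2 difference 8.42 ± 0.39 SE, adjusted p = 1.35e-05). Igf2bp3 (chr6:49085223-49214957), a fetal RNA-binding protein, was at 7.26, 9.26 and 8.82 FPKM against 0.097 to 0.365 FPKM, median 0.193 (5.42 ± 0.37, adjusted p = 7.43e-05). Kcnf1, a potassium channel subunit, was at 45.5, 35.8 and 15.8 FPKM against 0.0166 to 0.651 FPKM, median 0.289 (6.80 ± 0.67, adjusted p = 0.000495).

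The remaining 9 were Ephx1, an epoxide hydrolase, Spock2, an extracellular proteoglycan, Wnt8b, a WNT ligand, Syde2, a GTPase-activating protein, Epcam, an adhesion molecule, Serpine2, a protease inhibitor, Trim16, Nme4, a mitochondrial nucleotide kinase, and Poll, a repair DNA polymerase. Their log2 differences ran from 5.57 ± 0.87 for Spock2 to 3.32 ± 0.78 for Poll. Some NOTCH-active leukemias held more of them, and the highest was at 6.23 FPKM for Nme4, 3.67 FPKM for Epcam and 2.76 FPKM for Serpine2. Trim16 (3.41) and Nme4 (3.38) lost their calls without 8633 (3.41 and 3.43), without JW14 (3.20 and 3.21), without 20M (3.18 and 3.17) and with 8633 and JW14 summed, and Trim16 also without 73A (3.47). Igf2bp3 shares exon bases with Malsu1 and Trim16 with Fbxw10. All 12 were called in the other libraries too, with log2 differences of 3.10 to 7.93.

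**Figure D2:**
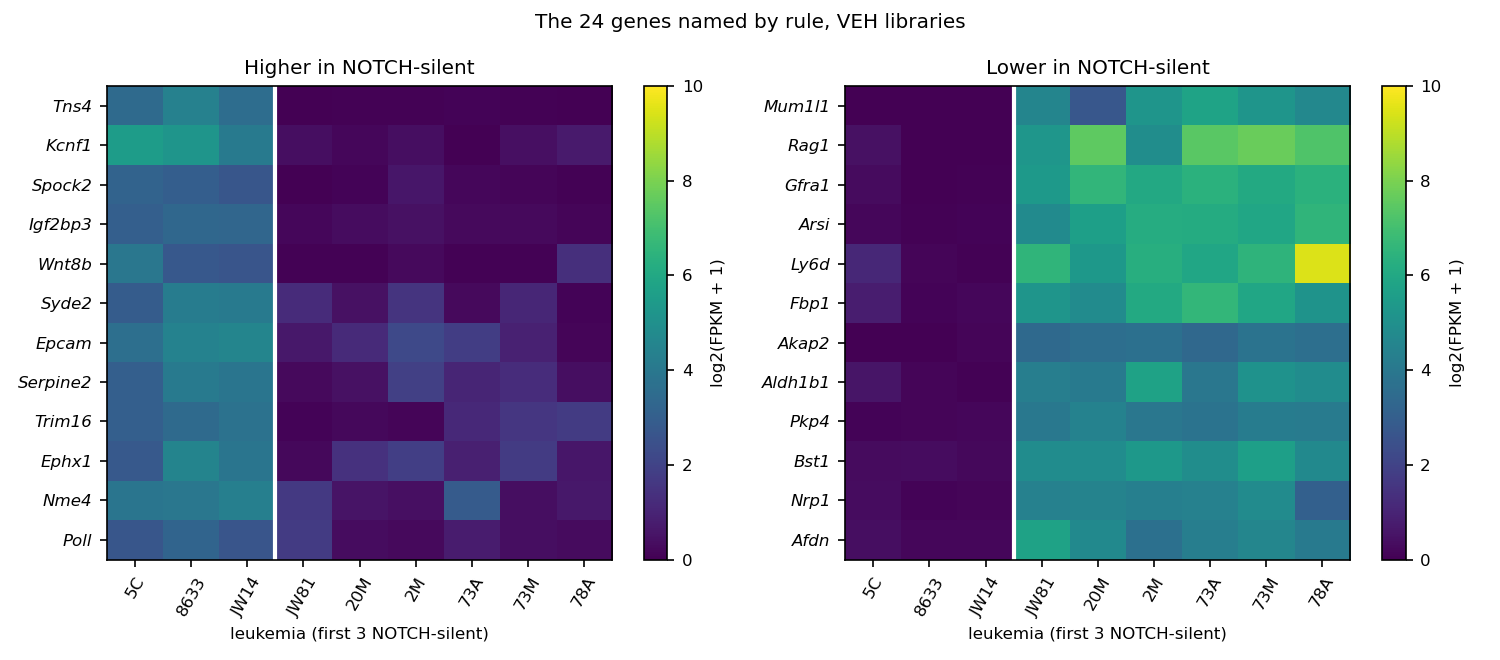
Level as log2(FPKM + 1), by colour, of the 12 genes higher and the 12 lower in NOTCH-silent leukemias that the naming rule gave, in each of the 9 VEH libraries; the white line separates the 3 NOTCH-silent leukemias from the 6 NOTCH-active ones. Tns4 is at 9.84 to 19.8 FPKM left of the line and at most 0.0616 FPKM right of it, and Rag1 at most 0.348 FPKM left and at least 28.9 FPKM right.

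Of 20 tested members of the NOTCH machinery list, whose genes make or read the NOTCH1 signal, 3 were lower and 1 was higher, or 6 and 1 by DESeq2, and the median log2 difference was −0.16 against 0.00 over all genes. Rbpj was at 8.66, 7.76 and 7.64 FPKM against 6.79 to 10 FPKM, median 8.85, and the groups overlapped (−0.04 ± 0.14, adjusted p = 0.862). The coactivator Maml3 was lower (0.59, 0.668 and 0.717 against 1.49 to 2.77 FPKM, −1.77 ± 0.21, adjusted p = 0.00112) and so was Maml1 (−0.62 ± 0.13, adjusted p = 0.00898). Lfng, a glycosyltransferase that modifies NOTCH receptors, was the higher member, at 2.79, 5.46 and 8.93 FPKM against 0.42 to 2.16 FPKM (2.18 ± 0.49, adjusted p = 0.0134), and its call was lost without JW14 (1.70).

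Genes of thymocyte maturation were lower as a group. The later thymocyte list had 9 of 19 tested members lower and 1 higher, with a median log2 difference of −1.24, and in the other libraries 9 lower and 3 higher. Rag2, the partner of Rag1, was at 0.129, 0 and 0 FPKM against 0.404 to 24 FPKM, median 5.89 (−8.43 ± 1.93, adjusted p = 0.0138), and JW81 was the lowest NOTCH-active leukemia; its call was lost without 8633 (−7.64) or JW14 (−7.50) and with those summed. Themis, which is needed for positive selection, was at 10.3, 6.52 and 5.66 FPKM against 35.7 to 74.3 FPKM (−2.79 ± 0.29, adjusted p = 0.000607). Arpp21 (−4.61 ± 0.61, adjusted p = 0.00184) and the thymic homing receptor Ccr9 (−4.12 ± 0.87, adjusted p = 0.0106) also did not overlap between the groups.

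Cd8a and Cd8b1 encode the CD8 chains. Cd8b1 was at 9.29, 13.7 and 19 FPKM against 27.8 to 97.7 FPKM (−2.04 ± 0.46, adjusted p = 0.0131), and the call was lost without 8633 (−2.01). Cd8a was at 0.584, 0.25 and 0.167 FPKM and at 0.407 FPKM in JW81, while the other 5 NOTCH-active leukemias reached up to 158 FPKM, and the median of all 6 NOTCH-active leukemias was 76.4 FPKM (−7.87 ± 1.68, adjusted p = 0.0111). The groups overlapped at JW81, and the difference lost its call without JW14 (−7.49). Cd4, the co-receptor of helper T cells and of the double-positive stage, was at 174 FPKM in 5C and at 9.28 and 9.96 FPKM in the other NOTCH-silent leukemias, against 1.81 to 113 FPKM and did not pass (0.98 ± 1.26, adjusted p = 0.581), and the difference was −1.67 without 5C.

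The early thymocyte list had a median log2 difference of −2.19, with 7 of 9 tested members below 0, but 1 passed by edgeR, against 5 lower by DESeq2. Dntt, the enzyme that adds bases at receptor gene joints, was the member that passed, at 0.425, 1.76 and 28.2 FPKM against 119 to 312 FPKM (−4.14 ± 1.18, adjusted p = 0.0299), and its call was lost without 8633 (−3.63), 20M (−4.06) or 73M (−4.19) and with the other library of 5C (−4.17). The receptors Kit (adjusted p = 0.168) and Il7r (adjusted p = 0.614) had groups that overlapped. The T lineage list, which serves as a check of the cell type, was present in every leukemia. Its mean log2(FPKM + 1) was 4.38 to 4.63 in NOTCH-silent and 4.84 to 5.83 in NOTCH-active leukemias, and 3 of 12 members were lower, or 7 with 1 higher by DESeq2. In bulk RNA, fewer cells of a type and less RNA per cell cannot be told apart. Cd3d was at 53.7, 80.4 and 75.5 FPKM against 63.2 to 136 FPKM and did not pass (adjusted p = 0.312).

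Transcription factors of the T lineage were lower in 8 of 21 tested and higher in 2, with a median of −0.81. In the other libraries 6 were lower and 4 higher, with a median of −0.28. Tox2 was at 0.208, 0.0297 and 0.00779 FPKM against 3.17 to 14.2 FPKM, median 8.37 (−7.17 ± 0.95, adjusted p = 0.00184). Lef1, the partner of beta-catenin, was at 12.6, 22 and 16.2 FPKM against 44.5 to 74.2 FPKM (−1.65 ± 0.24, adjusted p = 0.00258), while its relative Tcf7 overlapped between the groups (−0.35 ± 0.23, adjusted p = 0.275). Satb1, a chromatin organizer, was at 12, 2 and 3.21 FPKM against 23.9 to 55.1 FPKM (−2.60 ± 0.56, adjusted p = 0.0113), and its call was lost without JW14 (−2.30). Gata3 overlapped between the groups (adjusted p = 0.507).

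Zbtb16, the factor PLZF of innate-like T cells, was higher in NOTCH-silent leukemias, at 8.47, 6.1 and 1.95 FPKM against 0.00738 to 0.226 FPKM, median 0.023 (6.67 ± 0.93, adjusted p = 0.00234). Myb, an oncogene of T-ALL, was at 122, 93.1 and 106 FPKM against 50.3 to 90.4 FPKM (0.66 ± 0.20, adjusted p = 0.0354). The groups did not overlap for either, but the call of Myb was lost when any of 5C (0.59), 8633 (0.76), JW14 (0.67), 20M (0.67), 73M (0.63) or 78A (0.63) was left out. Among E proteins and their ID inhibitors 3 of 6 were lower. Tcf12, the E protein HEB, was at 14.5, 18.2 and 15.9 FPKM against 45.8 to 69.2 FPKM (−1.86 ± 0.16, adjusted p = 0.000269), whereas Tcf3, the E protein E2A, overlapped between the groups (0.04 ± 0.18, adjusted p = 0.869). Id2 was lower as well (3.34, 0.774 and 1.37 against 6.16 to 27.9 FPKM, −3.17 ± 0.57, adjusted p = 0.00573). The LIM-domain oncogene Lmo1 was at 0.171, 0.0434 and 0 FPKM against 0.41 to 10.6 FPKM (−6.97 ± 1.51, adjusted p = 0.0115), and 1 other of 6 tested T-ALL oncogenes, Myb, passed.

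T-cell receptor signalling genes were lower in 7 of 21 tested and higher in none by edgeR or DESeq2, with 11 at an unadjusted p under 0.05. Ptprc, the phosphatase CD45, was at 17.6, 40 and 36.6 FPKM against 91.6 to 198 FPKM (3.99-fold lower, adjusted p = 0.00615). Prkcq, protein kinase C theta, was at 9.73, 9.82 and 6.42 FPKM against 19.6 to 36.7 FPKM (−1.64 ± 0.23, adjusted p = 0.00249). Neither gene overlapped between the groups. Egr2 (0.963, 1.77 and 1.75 against 0.0468 to 0.337 FPKM) and Egr3 (0.241, 0.229 and 0.138 against 0 to 0.0404 FPKM) were higher without overlap. Both averaged under 1 FPKM and were not tested. In the other libraries 8 of 21 were lower and 1 was higher, Egr1 (1.95, adjusted p = 0.00385). Egr1 did not pass in the VEH libraries (1.35 ± 0.60, adjusted p = 0.118). Trac, the alpha chain constant gene, was higher (142, 95.8 and 90 against 1.45 to 37.8 FPKM, 2.13 ± 0.68, adjusted p = 0.0431), a call that was lost when any of the libraries but 73A was left out (1.94 to 2.27). Among innate and cytotoxic genes 4 of 9 were lower and 1 was higher, and 2 were lower with 8633 and JW14 summed. Prf1, perforin, was at 0.0685, 0 and 0.0717 FPKM against 0.4 to 9.95 FPKM (−6.21 ± 1.30, adjusted p = 0.0103). Il2rb, the beta chain of the interleukin-2 and interleukin-15 receptors, was at 6.27, 6.65 and 3.53 FPKM against 0.182 to 1.91 FPKM (2.32 ± 0.55, adjusted p = 0.0165), opposite to Il2ra, and its call was lost without 8633 (2.16).

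The PI3K and FOXO list had 10 of 22 tested members lower and none higher by edgeR or DESeq2, with 12 at an unadjusted p under 0.05. With 8633 and JW14 summed 6 were lower, and in the other libraries 9 were lower and 1 was higher. Irs2, an adaptor of insulin receptors, was at 0.0979, 0.0426 and 0.159 FPKM against 1.04 to 3.63 FPKM (−4.63 ± 0.58, adjusted p = 0.00148). Pik3r5, a regulatory subunit of PI3K gamma, was at 1.69, 1.99 and 1.74 FPKM against 7.52 to 18.9 FPKM (−2.69 ± 0.33, adjusted p = 0.00125), and Insr, the insulin receptor, at 2.26, 1.38 and 1.99 FPKM against 4.15 to 5.99 FPKM (−1.45 ± 0.18, adjusted p = 0.0013). These 3 did not overlap between the groups. The related adaptor Irs1, also on the list, averaged under 1 FPKM and was not tested. It was at 0.55, 1.57 and 0.808 FPKM against 0 to 0.168 FPKM, higher without overlap. Txnip, a FOXO target that limits glucose uptake, was at 48.4, 29.5 and 30 FPKM against 66 to 105 FPKM (−1.16 ± 0.21, adjusted p = 0.00657), but the difference was −0.24 with the other library of 5C in place of its VEH library.

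RAS and ERK genes were lower in 11 of 25 tested and higher in none, or in 1 by DESeq2, with 15 at an unadjusted p under 0.05. The members that passed act on both sides of RAS. Those that turn RAS off included Rasa3, at 0.833, 1.69 and 0.53 FPKM against 14 to 22 FPKM (−4.03 ± 0.38, adjusted p = 0.000393), and Nf1, neurofibromin, at 2.88, 0.699 and 1.13 FPKM against 5.59 to 12.8 FPKM (−2.55 ± 0.45, adjusted p = 0.00535). Those on the activating side included the kinase Map2k1 (7.46, 7.87 and 7.68 against 11.2 to 14.9 FPKM, −0.74 ± 0.12, adjusted p = 0.00388), which did not pass in the other libraries (−0.41, adjusted p = 0.137). The exchange factor Rasgrp2, which acts chiefly on the RAS relative RAP1, was also lower (−1.33 ± 0.23, adjusted p = 0.00496). Rasgrp1 was at 94.5, 54.9 and 95.9 FPKM in the NOTCH-silent ones and 210 FPKM in JW81. The NOTCH-active range was 2.29 to 210 FPKM, median 18.9, and the groups overlapped (0.65 ± 1.15, adjusted p = 0.699). In the other libraries 7 of the 25 were lower and 1 was higher, and 5 were lower with 8633 and JW14 summed.

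Of 15 tested members of the IL7 receptor and JAK list 2 were lower and 1 higher, or 3 and 3 by DESeq2, with 6 at an unadjusted p under 0.05, a share of lower genes near that of all genes. The feedback inhibitors Socs3 (0.49, 0.152 and 0.101 against 2.52 to 30.1 FPKM, −5.42 ± 1.07, adjusted p = 0.00842) and Socs1 (−1.53 ± 0.23, adjusted p = 0.00294) were the lower ones. The phosphatase Ptpn2 was higher, at 29.3, 28.2 and 26.3 FPKM against 16.6 to 20.6 FPKM (0.70 ± 0.10, adjusted p = 0.00258). Of 14 NF-kB genes 3 were lower: Nfkbie, Tnfaip3 and Icam1, each an NF-kB target, with log2 differences of −1.29, −0.85 and −1.45. The calls of Tnfaip3 and Icam1 were lost without 8633 (−0.76 and −1.33), and that of Tnfaip3 also without JW14 (−0.73). Tnfaip3 also lost its call with 8633 and JW14 summed (−0.76) and with the other library of 5C (−0.70). It did not pass in the other libraries (−1.85, adjusted p = 0.0723) or with both libraries of each leukemia summed (−1.34).

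Homing and adhesion genes were lower in 7 of 19 tested and higher in none, or in 1 by DESeq2, with 12 at an unadjusted p under 0.05. The lower count was 3 with 8633 and JW14 summed. Ccr4, a chemokine receptor, was at 4.64, 2.76 and 2.54 FPKM against 9.75 to 12.3 FPKM (−1.68 ± 0.19, adjusted p = 0.00101), but did not pass in the other libraries (−0.81, adjusted p = 0.193). Several of these genes, such as Itgal and Itgb2, are also expressed by neutrophils, whose marker list, given below, had a level (mean log2(FPKM + 1)) of 4.82, 3.29 and 1.35 against 4.89 to 6.89, with no member past the threshold by edgeR. The part of those cells in the difference was not tested.

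Members of the ribosome biogenesis list were higher almost without exception. The list also holds genes of polyamine synthesis (Odc1 and Srm) and nucleotide synthesis (Cad and Nme1). Of 22 members, all tested, 20 were higher and none lower, 16 without overlap between the groups, and the median log2 difference was 0.85. Polr1b, a subunit of RNA polymerase I, was at 19, 21.8 and 23.7 FPKM against 8.88 to 13.5 FPKM, median 10.4 (1.08 ± 0.14, adjusted p = 0.00186). Fbl, the methyltransferase fibrillarin, was at 35.9, 41.4 and 41.8 FPKM against 16.3 to 23.9 FPKM, median 20.3 (1.05 ± 0.15, adjusted p = 0.00232). Ncl, nucleolin, was at 110, 115 and 130 FPKM against 61.6 to 85.2 FPKM (0.82 ± 0.13, adjusted p = 0.00347), and JW81 was the lowest of the 9. The members that did not pass were Nop56 (0.56 ± 0.19, adjusted p = 0.0547) and Odc1 (0.84 ± 0.28, adjusted p = 0.0523). In the other libraries 21 of 22 were higher. With 8633 and JW14 summed 12 passed.

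**Figure D3:**
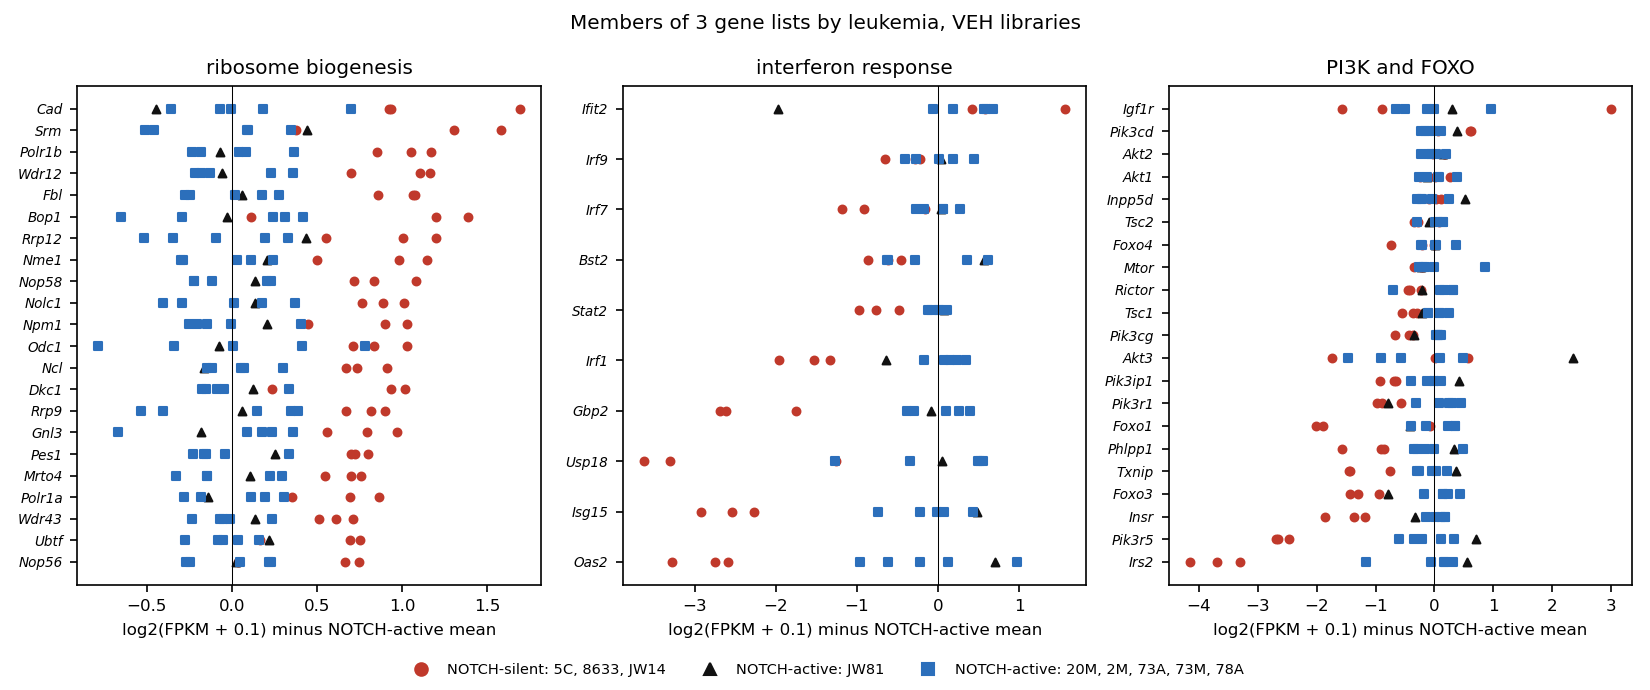
Tested members of the ribosome biogenesis, interferon response and PI3K and FOXO lists as log2(FPKM + 0.1) minus the mean over the 6 NOTCH-active VEH libraries, 1 point for each library, with 1 member of each of the last 2 lists not shown; circles are NOTCH-silent leukemias, triangles JW81 and squares the other 5 NOTCH-active leukemias. The circles lie to the right for ribosome biogenesis (median log2 difference 0.85) and to the left for most interferon response genes (median −1.57), with triangles among the squares for most genes.

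Myc, which drives many of these genes, was at 40.4 FPKM in 5C, 111 in 8633 and 84.6 in JW14 against 42.5 to 61.5 FPKM, median 50.4, and did not pass (0.70 ± 0.28, adjusted p = 0.0844). It passed without 5C (1.03), with the other library of 5C (0.75) and in the other libraries (2.24, adjusted p = 0.00123). Its partner Max was higher (21, 19.4 and 20.5 against 14.3 to 18.5 FPKM, 0.44 ± 0.10, adjusted p = 0.0128), and that call was lost without JW14 (0.43). Myc lies on chromosome 15, whose genes were raised in 8633 and JW14 and low in 5C, as given below.

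DNA replication genes were higher in 9 of 18 and lower in none, or in 2 by DESeq2, with 14 at an unadjusted p under 0.05 and a median of 0.45. Mcm5, a subunit of the replicative helicase, was at 98.3, 89.2 and 87.6 FPKM against 52 to 61.8 FPKM, median 56.1 (0.75 ± 0.09, adjusted p = 0.00111). Gins1, a partner of that helicase, was at 25.3, 16.9 and 17.3 FPKM against 9.43 to 12.8 FPKM (0.86 ± 0.16, adjusted p = 0.00591). The groups did not overlap in 9 of the 18 with NOTCH-silent higher. Mitosis genes gave another picture: of 17 tested none passed by edgeR, 2 had an unadjusted p under 0.05 and 2 were lower by DESeq2, and the median was −0.06. The kinase Cdk1 was at 39.4, 20.1 and 18.9 FPKM against 13.2 to 23.1 FPKM and the groups overlapped (0.44 ± 0.24, adjusted p = 0.183).

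Of 15 tested G1 cyclins and CDK inhibitors 2 were higher and 4 lower, and none was higher with 8633 and JW14 summed. Among the D-type cyclins, Ccnd1 was lower, at 0.576, 0.256 and 0.264 FPKM against 0.748 to 38.5 FPKM, median 18 (−5.66 ± 1.13, adjusted p = 0.0086). Ccnd2 was at 0.273 FPKM in 5C and at 10.2 and 13.7 FPKM in 8633 and JW14, against 0.251 to 1.69 FPKM (3.20 ± 0.89, adjusted p = 0.0272). Ccnd3 was at 61.5, 9.59 and 13.2 FPKM against 19.4 to 62.8 FPKM and did not pass (−0.63 ± 0.59, adjusted p = 0.441). The groups overlapped for Ccnd2 at 5C, and the call of Ccnd2 was lost without 8633 (3.03), JW14 (2.56), 20M (3.07) or 2M (3.12) and with 8633 and JW14 summed. Cdkn2d, a CDK inhibitor, was at 13.2, 10.3 and 12.2 FPKM against 19.7 to 35.6 FPKM (−1.19 ± 0.21, adjusted p = 0.00523).

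Glycolysis genes were higher in 6 of 18 and lower in 2, and in the other libraries 10 were higher and 1 was lower. Slc16a3, a lactate exporter, was at 3.34, 13.7 and 9.82 FPKM against 0.799 to 2.18 FPKM (2.65 ± 0.44, adjusted p = 0.00411). Tpi1, triose phosphate isomerase, was at 66.3, 113 and 102 FPKM against 32.7 to 54.7 FPKM (1.07 ± 0.22, adjusted p = 0.00962), and Pgk1 (0.59 ± 0.11, adjusted p = 0.00589) and Gapdh (0.60 ± 0.12, adjusted p = 0.00893) were higher as well. The glucose transporter Slc2a3 was lower (6.65, 7.02 and 7.39 against 11.4 to 27.7 FPKM, −1.44 ± 0.27, adjusted p = 0.00732). Cholesterol synthesis genes were lower in 4 of 16 and higher in none by edgeR or DESeq2, with 7 at an unadjusted p under 0.05, and 1 was lower with 8633 and JW14 summed. The 4 included the synthase Hmgcs1 (13.7, 11.1 and 13.5 against 16.7 to 47.9 FPKM, −1.41 ± 0.30, adjusted p = 0.0113).

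In the BCL2 family 3 of 13 tested were lower and 1 was higher. Bcl2, the survival protein, was at 3.82, 2.24 and 2.36 FPKM against 6.34 to 10.9 FPKM (−1.53 ± 0.24, adjusted p = 0.00371), and the death activator Bmf at 0.32, 3.6 and 4.04 FPKM against 7.91 to 30.4 FPKM (−2.52 ± 0.77, adjusted p = 0.0384). The call of Bmf was lost without any of 8633 (−2.76), JW14 (−2.95), 20M (−2.44), 73M (−2.47) or 78A (−2.23). Bcl2a1b, a survival gene with near-identical copies among which reads may be split, was at 25.9, 7.47 and 2.24 FPKM against 0.404 to 1.76 FPKM (3.44 ± 0.66, adjusted p = 0.00734). Of 16 chromatin regulators, 2 were higher and 1 was lower, with none higher when 8633 and JW14 were summed, and Ezh2 overlapped between the groups (adjusted p = 0.411).

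Interferon response genes were lower in 7 of 11 tested and higher in none by edgeR or DESeq2, with 8 at an unadjusted p under 0.05 and a median of −1.57. Irf1, a transcription factor of the interferon pathway, was at 6.36, 8.65 and 9.87 FPKM against 16.1 to 32 FPKM, median 27.2 (−1.57 ± 0.25, adjusted p = 0.00355). Isg15, a ubiquitin-like modifier, was at 0.351, 0.446 and 0.245 FPKM against 1.47 to 3.56 FPKM (−2.88 ± 0.43, adjusted p = 0.00288), and Gbp2, a guanylate-binding protein, at 1.13, 2.14 and 1.07 FPKM against 5.69 to 9.83 FPKM (−2.33 ± 0.30, adjusted p = 0.00165). The groups did not overlap for these 3, and all 3 kept their calls in the other libraries. Ifit2 did not pass (24.9, 11.1 and 12.5 against 2.04 to 13.4 FPKM, 0.79 ± 0.48, adjusted p = 0.236), and JW81 was its lowest leukemia. The count was 7 of 11 with 8633 and JW14 summed and 7 of 10 tested in the other libraries. Neutrophils also express these genes. The level of their marker list was 4.82 in 5C, near the NOTCH-active minimum of 4.89, and 3.29 and 1.35 in 8633 and JW14, and the part of these cells in the difference was not tested.

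**Figure D4:**
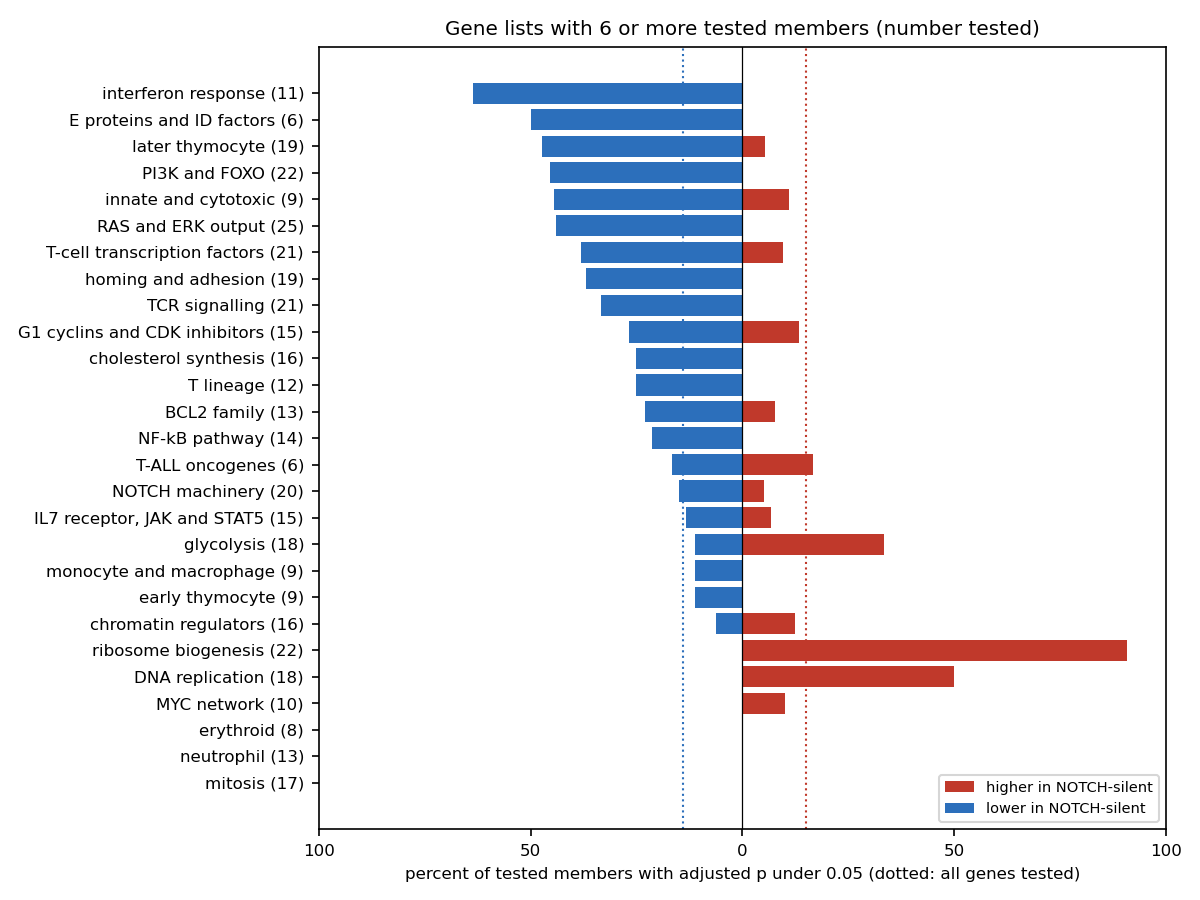
Percent of the tested members of each gene list that were higher (right) or lower (left) in NOTCH-silent leukemias at an adjusted p under 0.05, for the lists with 6 or more tested members, whose number is in brackets; dotted lines mark the 15.1% and 13.9% of all genes tested. Ribosome biogenesis has 20 of 22 members to the right and interferon response 7 of 11 to the left.

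Levels of markers of other bone marrow cells also varied between the libraries. None of the 13 neutrophil genes passed by edgeR, 6 had an unadjusted p under 0.05 and 10 were lower by DESeq2, with a median of −1.98. Their mean log2(FPKM + 1) was 4.82 in 5C, 3.29 in 8633 and 1.35 in JW14 against 4.89 to 6.89 in the NOTCH-active leukemias. Camp was at 95.1, 35.3 and 3.11 FPKM against 98.5 to 373 FPKM, and Elane was at 0 in JW14. The 8 tested erythroid genes had a median of −4.42 and none passed by edgeR, 3 had an unadjusted p under 0.05 and 7 were lower by DESeq2. Their mean log2(FPKM + 1) was 0.23 to 0.87 in NOTCH-silent leukemias and 2.76 and 4.64 in 73A and 73M, against 0.42 to 1.26 in the other NOTCH-active ones. Lyz2, a myeloid gene, was the 1 of 9 monocyte and macrophage genes that was lower (46.4, 19.7 and 7.95 against 56.6 to 404 FPKM, −2.67 ± 0.75, adjusted p = 0.0273), and it did not pass without 8633 (−2.55) or JW14 (−2.23). Of the remaining lists, the platelet chemokine Ppbp passed (−3.70 ± 0.61, adjusted p = 0.00416). The 2 tested B lineage genes, the 1 dendritic gene and the 2 mast, basophil and eosinophil genes did not pass by edgeR, with 1, 0 and 0 at an unadjusted p under 0.05 and 2, 0 and 0 called by DESeq2, and no gene of marrow stroma and endothelium was abundant enough to be tested.

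The share of genes called also depended on where they lie. On chromosome 14 the median log2 difference over 418 genes was −0.41, with 14 genes higher and 86 lower. Levels of its genes were raised in 20M, 2M and 78A, by a median of 0.39, 0.36 and 0.33 above the mean of the 9 libraries on the log2 scale. Chromosome 15 was raised in 8633 (0.31) and JW14 (0.29) but also in 2M (0.21) and 78A (0.30), while 5C (−0.29), 20M (−0.29), JW81 (−0.28) and 73A (−0.23) were low, and its median between the groups was 0.10. Chromosome 1 was raised in 2M (0.41). Copy number was not measured in these libraries. Rb1, the tumor suppressor, lies on chromosome 14 and was at 12.8, 8.69 and 8.03 FPKM against 16.3 to 26.2 FPKM (−1.02 ± 0.20, adjusted p = 0.00794), but did not pass in the other libraries (−0.65, adjusted p = 0.0902).

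Mitochondrial genes were higher, with a median of 0.70 over 15 and 10 of them past the threshold. The complex I subunits mt-Nd1 (2713, 2346 and 2541 against 959 to 1239 FPKM, 1.22 ± 0.12, adjusted p = 0.000409) and mt-Nd3 (1.14 ± 0.16, adjusted p = 0.00238) differed most, whereas the subunits mt-Nd4 and mt-Nd5 (adjusted p = 0.314 and 0.583) overlapped between the groups. The median was 0.47 in the other libraries.

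**Figure D5:**
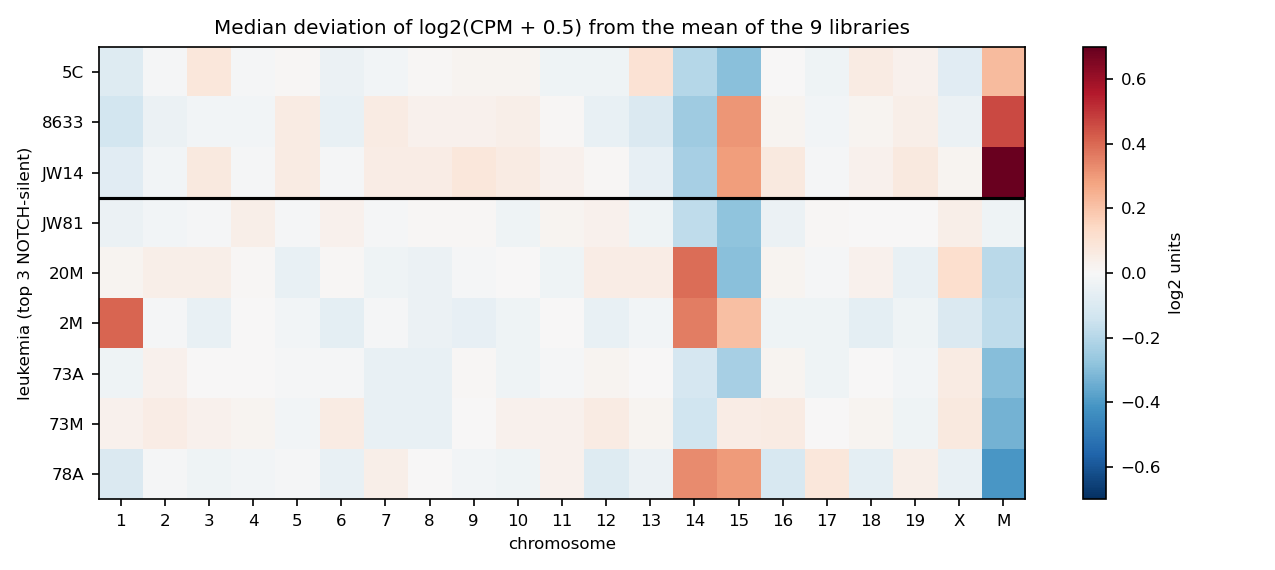
Median over the tested genes of each chromosome of log2(CPM + 0.5), where CPM is the count scaled to library size, minus the mean of the 9 VEH libraries, by colour in log2 units; the black line separates the 3 NOTCH-silent leukemias from the 6 NOTCH-active ones. Chromosome 14 is raised in 20M, 2M and 78A (0.33 to 0.39), chromosome 15 in 8633, JW14, 2M and 78A (0.21 to 0.31), and the mitochondrial genome in all NOTCH-silent leukemias (0.22 to 0.69).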

How the data were processed

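Polyadenylated RNA was sequenced as paired reads from an unstranded Illumina TruSeq kit. The authors aligned the reads to the mouse genome (mm10) with Bowtie2 and estimated transcript levels with RSEM, versions otherwise not given in the sources used here, and the deposited table holds expected counts per gene for 39017 genes, although its name speaks of FPKM. All 20 columns were matched to samples by name, and the 9 VEH columns of the compared leukemias entered the tests.

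Expected counts were rounded, scaled by TMM and fitted with the quasi-likelihood test of edgeR 4.0.16 in R 4.3.3, with Benjamini-Hochberg adjustment over the 11370 genes that had a mean of at least 1 FPKM over the 9 libraries. A log2 difference is NOTCH-silent over NOTCH-active with its standard error, and passing means an adjusted p under 0.05. A mean of log2(FPKM + 1) over a list is called its level. FPKM was computed here from merged exon lengths of GENCODE release M21 on GRCm38, found for 37693 genes (96.6%), with library totals as depth, so it is not the FPKM of RSEM. Ratios with few counts have exact 95% intervals that cover counting error only. As no strand was kept, counts of named genes that share exon bases with another annotated gene (among them Rag2, Maml1, Arpp21, Ccr9, Myb, Rasgrp2, Irs2, Rb1, Ccnd1, Tpi1, Gapdh, Bcl2 and Nop56) are uncertain. The scripts were tested on simulated data.

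The naming rule took protein-coding genes outside the NOTCH1 target list, the lists of other cells and receptor gene segments that had an adjusted p under 0.05, no overlap between the groups and at least 5 FPKM in each library of the higher group, and then the 12 with the largest log2 difference in each direction. 1758 genes met it before that ranking. Members of the gene lists were named to illustrate their list. The groups, the gene lists and the leukemias were chosen with earlier results of these data known. Some genes and 1 alternative fit are not reported here. Alternatives were RLE size factors, DESeq2 1.42.0, other filters, other libraries, and libraries summed or left out.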

Additional observations from a re-analysis of the deposited data

Results flagged for a closer look

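Within the 6 NOTCH-active leukemias, 17 of 157 sets of values (the named genes and the list levels) had a highest or lowest leukemia far from the rest by Dixon's criterion, which sets the gap to the nearest leukemia against the whole range. Chance flags about 1 in 20 such sets, or 7.8 of 157, and the sets are not independent. JW81 was the one set apart in 7 of the 17.

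JW81 was lowest for Notch1 (51.8 FPKM), Heyl (1.13 FPKM), Cd8a (0.407 FPKM), Cd160 (4.47 FPKM) and Ifit2 (2.04 FPKM), and highest for Hhex (25.9 FPKM) and Poll (2.3 FPKM). Leukemia 78A was highest for Ly6d (713 FPKM) and Wnt8b (1.52 FPKM) and lowest for Nrp1 (7.47 FPKM). Leukemia 2M was highest for Spock2 (0.539 FPKM) and Ptpn2 (20.6 FPKM) and lowest for Maml3 (1.49 FPKM). Leukemia 73A was lowest for Bcl11b (20 FPKM) and Trac (1.45 FPKM). Leukemia 73M was lowest for Ccnd1 (0.748 FPKM) and highest for the level of the T-ALL oncogene list (1.33).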

How the results depend on the processing

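The numbers of genes higher and lower in NOTCH-silent leukemias (1714 and 1586) stayed within 1.5 times under RLE size factors, DESeq2 (1986 and 2206), no filter on low values (1651 and 1331), edgeR's own filter, genes of at least 200 bases, both libraries summed, the other libraries and the other library of 5C. They were 823 and 766 with 8633 and JW14 summed. With 1 leukemia left out in turn they ranged from 769 to 1800 higher and from 708 to 1751 lower. Leaving out 8633 (918 and 845) or JW14 (769 and 708) moved them by over 1.5 times, while leaving out 5C, which also leaves 2 NOTCH-silent leukemias, gave 1613 and 1568.

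Over the named genes and 18 alternatives, 1916 values kept direction and call, 159 lost the call, 8 gained it and 2 changed sign. Leaving out JW14 ended 31 calls, leaving out 8633 26 and summing those libraries 22. The sign changed for Cd4, which was not called, without 5C (−1.67) and for Hk2 in the other libraries (0.14, against −1.02 with an adjusted p of 0.0272 in the VEH libraries), and the causes were not tested. No paired analysis was possible because the replicate numbers name different leukemias.

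Limits are 3 NOTCH-silent leukemias, of which 8633 and JW14 resembled each other, groups set by a gene measured in the same libraries, other alleles that differ with the groups, and marrow cells that were not separated. A gene with few counts in 5C (11305114 in all) has the widest counting error.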

Other observations

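The NOTCH-silent leukemias were themselves unlike. Among the genes tested, 5C was over 4-fold above both 8633 and JW14 for 195 genes and over 4-fold below both for 86, on the FPKM + 1 scale. Cd4 (174 against 9.28 and 9.96 FPKM) was among those higher in 5C, and Il7r, the interleukin-7 receptor (0.398 against 5.63 and 11.9 FPKM) and Ccnd2 (0.273 against 10.2 and 13.7 FPKM) were lower. Igf1r, the receptor for insulin-like growth factor, was at 5.62 FPKM in 5C against 0.142 and 0.287 FPKM. Between 8633 and JW14, Dntt was at 1.76 and 28.2 FPKM and the CDK inhibitor locus Cdkn2a at 12.4 and 0.52 FPKM. There was 1 VEH library for each leukemia, so these values have no replicate error.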
